A study of Mus musculus with 2 samples.

Results

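The genes described here are the semaphorins, ephrins, Slits and netrins and the receptors that carry their names: plexins, Eph receptors, Robo receptors and Unc5 receptors. They were chosen by gene symbol alone, as every protein-coding gene of the M21 annotation named Sema3 to Sema7, Plxn, Efna or Efnb, Epha or Ephb, Slit, Robo, Ntn or Unc5 followed by its member letter or number. The rule finds 66 genes of 22028 protein-coding genes, made up of 35 ligands and 31 receptors. Their RNA was measured in whole hearts of B6NCrl mouse embryos at day 12.5, male and female embryos pooled, in 2 libraries of polyadenylated RNA that form a single group. No treatment, genotype or stage was compared. The labels give the libraries separate biosamples but a shared donor label, so the spread between them may be partly technical.

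Guidance ligands steer the migration, adhesion and repulsion of cells that carry the matching receptor, and were first worked out in growing axons. Secreted class 3 semaphorins signal through plexins, usually with a neuropilin as coreceptor, and the other classes are bound to the membrane. Ephrins and Eph receptors both sit on cell surfaces and can signal into either cell, Slits act through Robo receptors, and netrins act through Dcc, neogenin and Unc5 receptors. In the developing heart these systems are known for outflow tract septation, cushion and valve formation, the separation of arteries from veins, and the placing of nerves.

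Of the 66 genes, 48 were detected, meaning at least 1 TPM, an abundance divided by transcript length and scaled to a fixed library total, in both libraries. Over all protein-coding genes 56.6% passed the same threshold. A further 17 guidance genes were under 1 TPM in both libraries, and Sema4a passed in replicate 1 alone, at 1.05 TPM against 0.72 TPM. By mean level, Efna3 lay just inside the threshold, at 1.00 and 1.03 TPM, and Sema4a just outside it. Guidance genes had medians of 6.31 TPM (replicate 1) and 6.98 TPM (replicate 2), where all protein-coding genes had 3.24 and 3.27 TPM. Expected counts on genes summed over the 66 members to 87499 and 84113, a share of 0.255% (95% Clopper-Pearson interval 0.254 to 0.257%) and 0.268% (0.266 to 0.27%) of the 34248993 and 31394912 counts on genes, spike-ins and rows without a gene name left out. These intervals cover counting error only.

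All 8 ephrins were detected, with 9 of 14 Eph receptors, 13 of 20 semaphorins, 8 of 9 plexins, 2 of 3 Slits, 3 of 4 Robo receptors, 2 of 4 netrins and 3 of 4 Unc5 receptors. When the members of each family were put in order of mean level, 46 of 52 neighbouring pairs had library values that did not overlap. The 6 pairs that overlapped, and so have no order here, were Epha2 with Epha1, Epha10 with Epha6, Sema4a with Sema4g, Efnb1 with Efnb2, Plxna4 with Plxna3, and Plxna2 with Plxnc1.

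**Figure D1:**
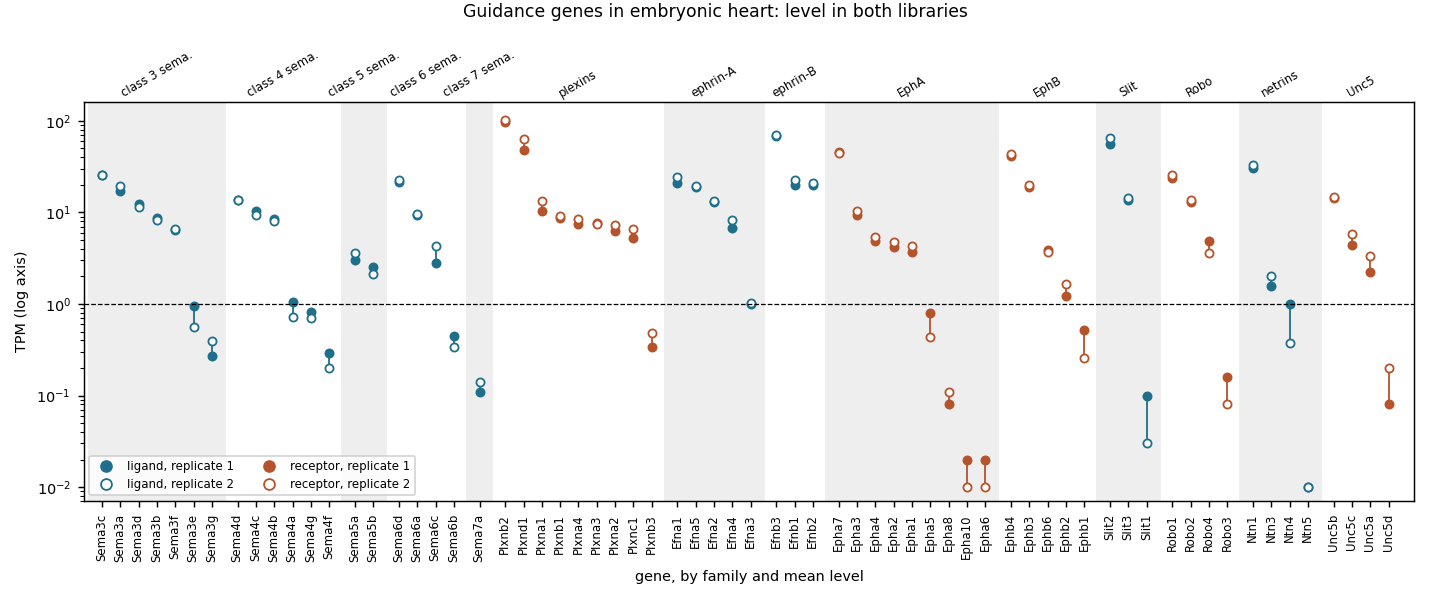
TPM of all 66 guidance genes on a log axis, by family, with filled points for replicate 1 and open points for replicate 2. Ligands are blue, receptors are orange, the dashed line marks 1 TPM, and values under 0.01 TPM are drawn at 0.01. Plxnb2 is the highest point at 96.9 and 101.17 TPM, and on this log axis the libraries lie farthest apart among genes under the line.

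The libraries behaved as embryonic heart by markers listed from general knowledge. All 8 cardiomyocyte, 8 endothelial and endocardial, 7 cushion mesenchyme and 5 epicardial markers were detected. Neuronal and glial markers were low, with 5 of 9 detected and a summed level of 19.68 and 16.99 TPM, and 4 of 5 macrophage markers were detected. Hepatocyte markers summed to 169.88 TPM in replicate 1 and 36.68 TPM in replicate 2, and all 7 were lower in replicate 2 past the test described with the library comparison, with none at 0. In whole tissue, fewer cells of a type and less RNA per cell cannot be told apart.

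Among the secreted class 3 semaphorins, 5 of 7 were detected, and Sema3c led. Sema3c, a ligand needed for septation of the outflow tract, was measured at 25.67 TPM (replicate 1) and 25.8 TPM (replicate 2). Sema3a, a repellent that patterns cardiac sympathetic nerves, stood at 17.18 and 19.39 TPM. Sema3d stood at 12.5 and 11.37 TPM. The order of these 3 was the same in both libraries, and their values did not overlap. Sema3b stood at 8.77 and 8.3 TPM and Sema3f, known to act through Plxna3, at 6.37 and 6.54 TPM. Sema3e, which binds plexin D1 without a neuropilin, was at 0.95 and 0.56 TPM, and Sema3g was at 0.27 and 0.39 TPM.

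A stretch of chromosome 5 holds Sema3d (chr5:12383385-12588948), Sema3a (chr5:13125414-13602565), Sema3e (chr5:14025276-14256689) and Sema3c (chr5:17574281-17730268), all on the plus strand of mm10. Between Sema3a and Sema3e lie 422.7 kb, and Sema3c lies much farther off. Sema3e was under 1 TPM, while Sema3a and Sema3c were both at 17.18 TPM or more. Levels also differed among the ephrin-A genes of chromosome 3, which lie closer together. There Efna1 (21.1 and 24.13 TPM) and Efna3 (1.00 and 1.03 TPM) lie 32.8 kb apart, and Efna4 (6.81 and 8.27 TPM) follows after another 10.4 kb.

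The membrane-bound semaphorins were led by Sema6d, a class 6 member known from work on the heart tube, at 21.51 and 22.77 TPM. Within class 6, Sema6a followed at 9.34 and 9.61 TPM and Sema6c at 2.78 and 4.27 TPM, and Sema6b was under the threshold at 0.45 and 0.34 TPM. In class 4, Sema4d, the ligand of plexin B1, stood at 13.56 and 13.55 TPM, Sema4c at 10.39 and 9.27 TPM and Sema4b at 8.39 and 8.01 TPM. The other class 4 genes were low, with Sema4g at 0.82 and 0.71 TPM and Sema4f at 0.29 and 0.2 TPM. Class 5, whose members carry thrombospondin repeats, was low but detected, Sema5a at 3.04 and 3.56 TPM and Sema5b at 2.51 and 2.12 TPM. Sema7a, the sole semaphorin with a lipid anchor, was at 0.11 and 0.14 TPM.

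Sema6d transcripts split over an in-frame exon. A 57-base exon (chr2:124660705-124660761, mm10, plus strand) was carried by 68.5% in replicate 1 and 70.1% in replicate 2 of the TPM on complete coding transcripts that either hold it or join its neighbouring exons directly. Other segments are given in the same way, an alternative splice site being set against exons that share its other edge, and coding transcripts of neither kind are left out. The exon is shown in capitals with 21 coding bases on each side, since both forms are present in quantity and keep the reading frame.

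Sema6d, 57-base exon: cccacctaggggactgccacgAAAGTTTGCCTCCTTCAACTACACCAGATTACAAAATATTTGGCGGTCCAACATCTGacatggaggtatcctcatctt

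The share was almost the same by expected counts, at 67.3% and 68.8%. A longer 168-base segment of the same gene was included at 93.5% and 93.1%, and a 39-base segment was included at 4.94% and 2.67%. The leading transcript, Sema6d-206, holds the 57-base exon and stood at 10.64 and 11.81 TPM, and Sema6d-203, which lacks it, stood at 5.7 and 5.77 TPM.

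Plexins are the signalling receptors of semaphorins, and Plxnb2 was the member with the highest TPM of all 66. Its level was 96.9 TPM (replicate 1) and 101.17 TPM (replicate 2). Plxnd1, the receptor of endothelial cells that responds to Sema3e and Sema3c, was next among plexins at 47.62 and 62.71 TPM. The libraries differ in that value, but the counts behind it were close, at 5999 and 5878. Plxna1 followed at 10.48 and 13.46 TPM, and Plxnb1, the Sema4d receptor, was at 8.71 and 9.1 TPM. Of the other A-type plexins, which partner neuropilins or bind class 6 semaphorins, Plxna4 was at 7.43 and 8.43 TPM, Plxna3 at 7.71 and 7.45 TPM and Plxna2 at 6.24 and 7.36 TPM. Plxnc1, the Sema7a receptor, was at 5.23 and 6.6 TPM. Plxnb3 alone was under the threshold, at 0.34 and 0.48 TPM. The plexins summed to 190.66 and 216.76 TPM and the semaphorins to 145.95 and 147.62 TPM.

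Both leading plexins carried much of their TPM on short transcripts that code for no protein. Transcripts were sorted into full-length coding models, with a complete coding sequence of at least 90% of the gene's longest, shorter complete coding models, incomplete coding models, and models annotated as not protein coding. Plxnb2 had 49.9% and 47.5% of its TPM on full-length models, at 48.37 and 48.08 TPM. An 834-base processed transcript, Plxnb2-205, held 38.1% and 39.8% of its TPM but only 670 and 660 of its 8498 and 7714 counts. Plxnd1 had 34.96 and 37.21 TPM on its full-length model, which differed far less between libraries than the gene total. Its retained-intron models of 442 and 542 bases, Plxnd1-204 and Plxnd1-205, held nearly all of the rest, with Plxnd1-205 at 7.75 and 13.6 TPM. A short model turns few counts into a high TPM.

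Ephrins showed a different make-up. The 3 ephrin-B ligands, which span the membrane, summed to 108.08 and 113.76 TPM. Efnb3 led them at 68.39 and 70.08 TPM, all of it on full-length models, so on full-length coding transcripts Efnb3 rather than Plxnb2 was the highest member. Efnb1 stood at 19.84 and 22.57 TPM, and Efnb2, the ligand that marks arterial endothelium, at 19.85 and 21.11 TPM. These last values overlap, so Efnb1 and Efnb2 have no order.

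The ephrin-A ligands, which are held to the membrane by a lipid anchor, summed to 61.04 and 66.44 TPM. Efna1 led at 21.1 and 24.13 TPM, followed by Efna5 at 19.16 and 19.65 TPM and Efna2 at 12.97 and 13.36 TPM. Efna4 and Efna3 were lower, as given above. Of the 8 ephrins, Efna1, Efna2, Efna4, Efna5, Efnb1, Efnb2 and Efnb3 had at least 90% of their TPM on a single leading transcript in both libraries. Among the 48 detected members, 11 did so, and the other 4 were Epha2, Ephb3, Plxna4 and Unc5b.

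**Figure D2:**
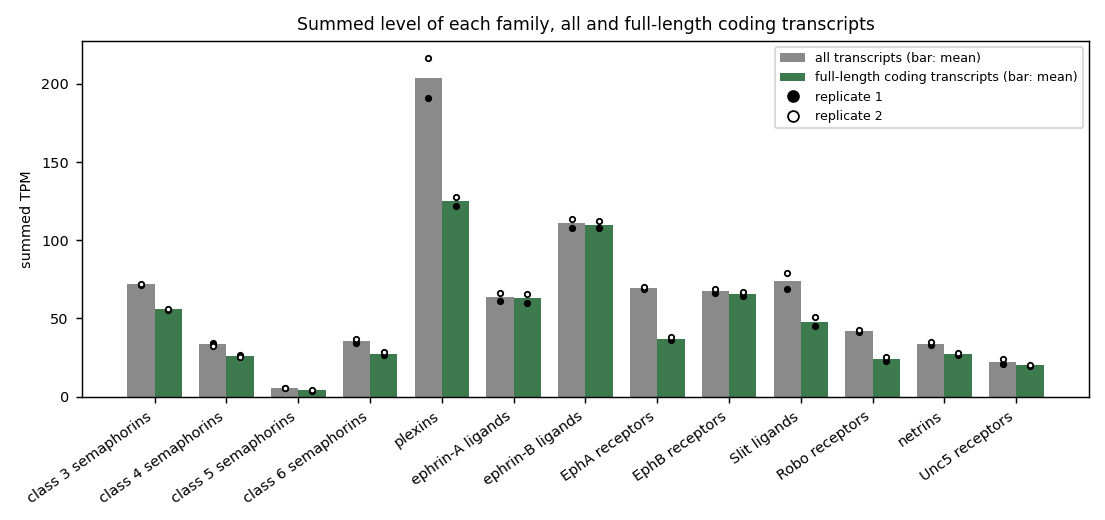
Summed TPM of each family that had a detected member, over all transcripts (grey) and over full-length coding transcripts (green), with bars at the mean of both libraries and points for each library. Ephrin-B ligands keep nearly all of their sum on full-length models, while plexins fall from 190.66 and 216.76 TPM to 122.16 and 127.81 TPM.

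Among EphA receptors, which mainly bind ephrin-A ligands, Epha7 stood far above the rest. Its level was 46.19 TPM (replicate 1) and 44.97 TPM (replicate 2). Epha3, a receptor with a known role in endocardial cushions, was at 9.28 and 10.4 TPM, and Epha4, which binds ephrins of both kinds, at 4.86 and 5.34 TPM. Epha2, a receptor of Efna1, was at 4.14 and 4.75 TPM and Epha1 at 3.69 and 4.29 TPM, which overlap. Epha1 shares 236 exon bases with Zyx on the opposite strand, a gene at 167.06 and 170.56 TPM, and reads of such partners cannot be told apart where counting did not use strand. Epha5 (0.79 and 0.44 TPM), Epha8 (0.08 and 0.11 TPM), Epha10 (0.02 and 0 TPM) and Epha6 (0.02 and 0 TPM) were under the threshold.

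Epha7 also had complete coding forms of unlike length. Full-length models held 37.3% and 38.1% of its TPM, and shorter complete coding models held 17.1% and 16.5%. The shorter form Epha7-202 encodes 610 residues against 998 for Epha7-201, and stood at 6.28 and 5.39 TPM against 15.32 and 15.02 TPM. Truncated Epha7 forms that lack the kinase domain are known from other tissues. A processed transcript, Epha7-208, held a further 28.0% and 28.8%.

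The split begins at the end of a shared exon, and the 2 sequences printed here start with the same 21 bases of it. In Epha7-201 the capitals are a 12-base segment (chr4:28947528-28947539, mm10, plus strand) that Epha7-203 skips. In Epha7-202 the capitals are its last coding exon of 32 bases (chr4:28946219-28946250), which the full-length model lacks.

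Epha7-201, 12-base segment: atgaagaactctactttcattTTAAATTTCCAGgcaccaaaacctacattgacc

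Epha7-202, last coding exon: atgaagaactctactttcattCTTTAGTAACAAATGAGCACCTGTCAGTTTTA

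The 12-base segment was carried by 89.0% and 87.7% of the TPM of the full-length forms that differ by it.

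EphB receptors, which mainly bind ephrin-B ligands, were led by Ephb4, the receptor that marks venous endothelium. It stood at 41.54 and 43.31 TPM. Ephb3 was at 18.82 and 19.75 TPM, Ephb6, whose kinase domain is inactive, at 3.89 and 3.65 TPM, and Ephb2 at 1.21 and 1.64 TPM. Ephb1 was under the threshold at 0.52 and 0.26 TPM. The EphA and EphB families had near sums over all transcripts, at 69.07 and 70.3 TPM against 65.98 and 68.61 TPM. On full-length models the EphA sum was 36.07 and 38 TPM and the EphB sum 64.09 and 66.73 TPM.

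Ephb4 transcripts used a minor splice site. The alternative adds 27 bases (chr5:137362363-137362389, mm10, plus strand), and 8.86% and 10.5% of the TPM that includes or skips it carried it. It is shown because it puts 9 codons into a receptor that the heart held at a high level.

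Ephb4, 27-base segment: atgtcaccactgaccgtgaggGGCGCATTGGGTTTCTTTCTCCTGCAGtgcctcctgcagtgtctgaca

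Among Slits, Slit2 was by far the highest, with 55.2 TPM (replicate 1) and 64.84 TPM (replicate 2). Slits are secreted repellents with a role in heart tube and septum formation. Slit3 stood at 13.62 and 14.29 TPM, and Slit1, a Slit mainly of the nervous system, at 0.1 and 0.03 TPM from 3 and 4 counts. Full-length models held 64.4% and 62.6% of Slit2 TPM, at 35.55 and 40.57 TPM, and most of the rest lay on retained introns, among them Slit2-207 at 8.42 and 10.14 TPM.

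Slit2 full-length transcripts came as 2 main forms. Slit2-202 holds a 12-base exon (chr5:48191003-48191014) and a 24-base exon (chr5:48220967-48220990), both on the plus strand of mm10, that Slit2-208 lacks. The exons are in capitals, and they are shown because they separate the 2 forms that make up nearly all of the full-length Slit2 level.

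Slit2, 12-base exon: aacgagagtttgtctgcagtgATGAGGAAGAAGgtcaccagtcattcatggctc

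Slit2, 24-base exon: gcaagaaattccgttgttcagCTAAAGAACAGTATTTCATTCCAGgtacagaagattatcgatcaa

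The share with the exons was 69.6% in replicate 1 and 68.9% in replicate 2, and 64.0% and 63.2% by expected counts. Slit2-202 and Slit2-208 also differ in length, at 7758 and 9960 bases, so reads outside the exons help to set these shares. Another alternative exon, of 27 bases, found in Slit2-217, was listed at 0 in both libraries.

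**Figure D3:**
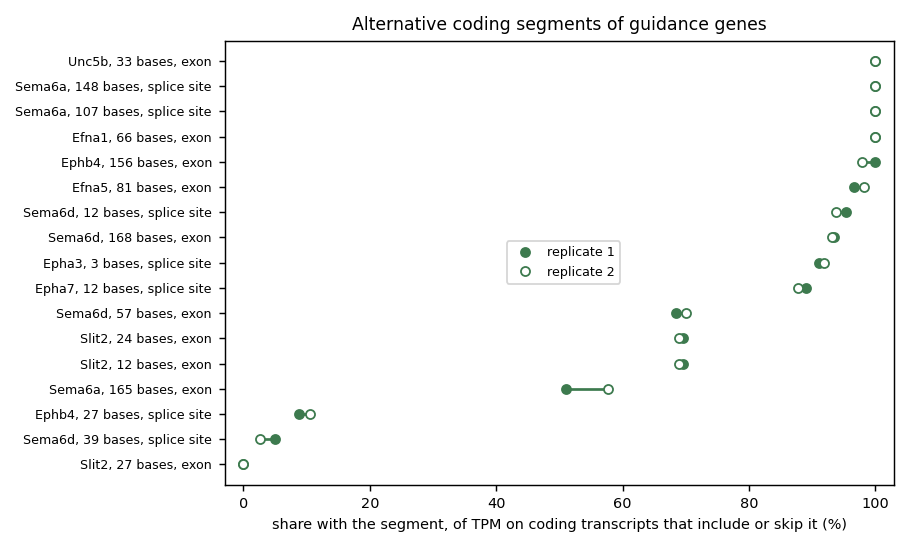
Share of TPM with each of 17 alternative coding segments, out of the coding transcripts that include or skip it, where these reached 5 TPM in both libraries, filled points for replicate 1 and open points for replicate 2. Most segments lie near 0 or 100%, and Sema6d, Slit2 and Sema6a hold the 4 that lie between 51.0 and 70.1%.

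Robo receptors bind Slits, and Robo1 led them at 23.56 and 25.37 TPM. Robo2 stood at 13.06 and 13.71 TPM. Robo2 was the sole detected member whose leading transcript was not full-length coding. That transcript, the retained-intron model Robo2-209, held 28.7% and 25.1% of Robo2 TPM, and full-length models held 22.5% and 24.4%. Incomplete coding models held most of the rest, among them Robo2-211 at 1.93 and 1.53 TPM. Robo4, a receptor of endothelial cells, was at 4.88 and 3.56 TPM with counts of 277 and 293, so its TPM was lower in the library with more counts. A 530-base retained intron, Robo4-206, was at 2.15 TPM in replicate 1 and 0 in replicate 2. Robo3, known from commissural neurons, was at 0.16 and 0.08 TPM, and lies tail to tail with Robo4 on chromosome 9, with 553 bases between the 3' ends.

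Ntn1 held most of the netrin sum, at 30.22 and 32.61 TPM of 32.79 and 34.99 TPM. Ntn3 was at 1.58 and 2.01 TPM and shares 89 exon bases with Tbc1d24 on the same strand, a gene at 3.96 and 4.14 TPM. Ntn4, a netrin of basement membranes, was at 0.99 and 0.37 TPM, and Ntn5 had no counts in either library. Its limit is 3 counts per library, or up to 8.76e-06% and 9.56e-06% of gene counts.

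Unc5b, an endothelial netrin receptor that also binds Robo4, led its family at 14.41 and 14.55 TPM. Unc5c stood at 4.38 and 5.74 TPM, and Unc5a at 2.26 and 3.31 TPM. Unc5d was at 0.08 and 0.2 TPM. Of the other netrin receptors, neogenin (Neo1) was at 32.73 and 33.95 TPM, above each Unc5 gene, while Dcc was at 0.86 and 0.89 TPM.

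**Figure D4:**
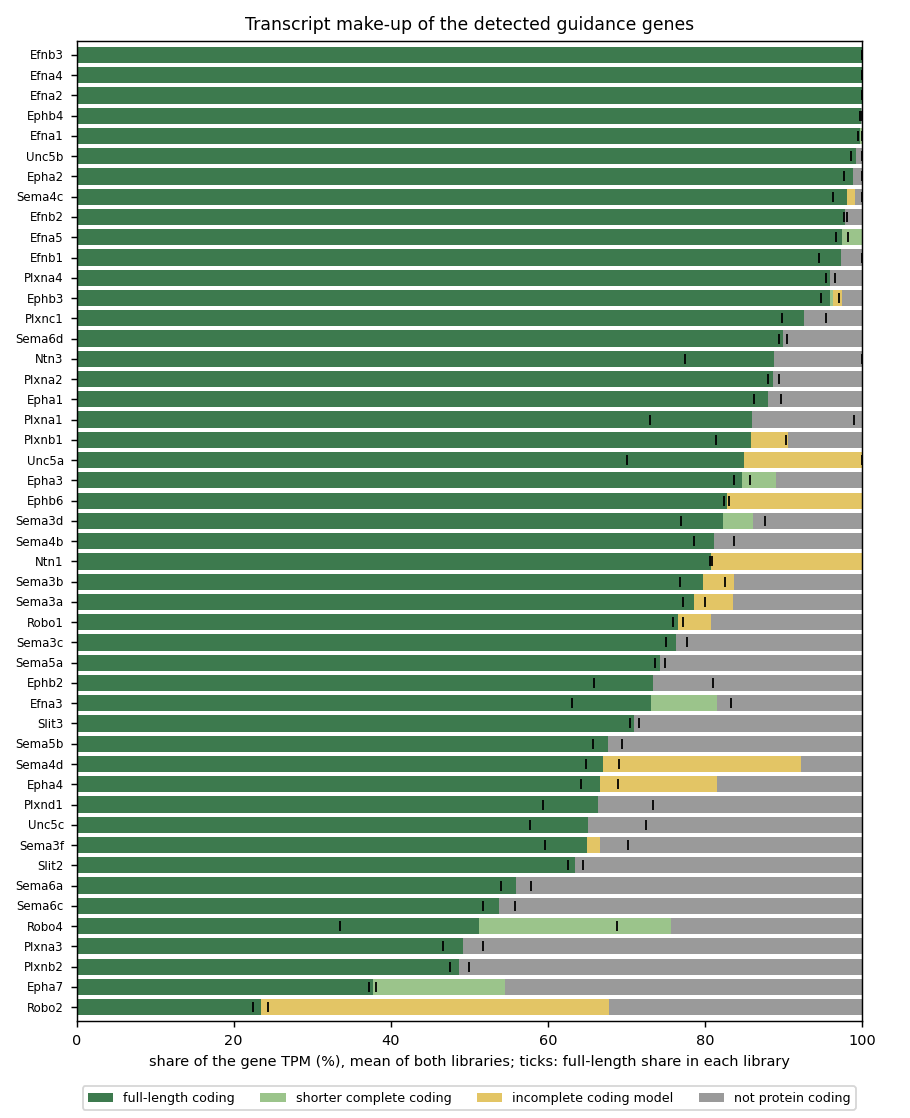
Share of TPM by transcript class for the 48 detected members, as the mean of both libraries, with ticks for the full-length share in each library. Efnb3, Efna4 and Efna2 lie at 100%, and Efna3 is the ephrin farthest down at 63.0% and 83.3%. Efna3 had only 38.57 and 45.69 counts, and its full-length share of counts was 91.7% and 94.5%. Robo2, Epha7 and Plxnb2 lie at the bottom with under 50% on full-length models in both libraries.

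By transcript class, 47 of the 48 detected members had a full-length coding model as their leading transcript. Full-length models held at least 90% of TPM in 13 members and at least 90% of counts in 31 members, in both libraries. They held under 50% of TPM in 3 members, Epha7, Plxnb2 and Robo2, and under 50% of counts in Robo2 alone. The leading transcript held under 50% of TPM in both libraries in 9 members, namely Epha7, Plxnb2, Robo2, Robo4, Sema4c, Sema5b, Sema6a, Sema6c and Slit2. For Sema4c this was a split among models of equal coding length: 4 models of 834 residues each held between 0.9 and 3.93 TPM.

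Summed ligand TPM was set against summed TPM of the receptors that carry the family's name. Semaphorins stood below plexins, with a log2 ratio of -0.39 in replicate 1 and -0.55 in replicate 2. Ephrins stood above Eph receptors (0.33 and 0.38), Slits above Robo receptors (0.73 and 0.89), and netrins above Unc5 receptors (0.63 and 0.56). The netrin ratio leaves out the receptors Neo1 and Dcc. Neo1 alone, at 32.73 and 33.95 TPM, was near the netrin sum of 32.79 and 34.99 TPM. The sign of each ratio was the same in both libraries and on full-length coding transcripts, but with counts not divided by length the mean ephrin ratio turned to -0.1. On full-length coding transcripts the TPM ratios were -0.12 and -0.17 for semaphorins and 0.74 and 0.76 for ephrins. They were 1.01 and 1.00 for Slits, and 0.43 and 0.47 for netrins. Such ratios compare different genes within a library and carry no test.

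Single ligand and receptor pairs, taken from general knowledge of binding, ranged widely. Efnb2 stood below Ephb4 by a log2 ratio of -1.07 and -1.04, the artery and vein markers of endothelium. Sema3e stood far below Plxnd1, at -5.65 and -6.81, while Sema3c, which also acts through Plxnd1 with a neuropilin, stood at -0.89 and -1.28 against it. Nrp1, that neuropilin, was at 105.37 and 107.15 TPM, above all 66 members. Sema7a was below its receptor Plxnc1 (-5.57 and -5.56), and Sema4c below Plxnb2 (-3.22 and -3.45).

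Other ligands stood above their receptors. Sema4d stood above Plxnb1 (0.64 and 0.57), Sema6d above Plxna1 (1.04 and 0.76), and Sema3a above Plxna4 (1.21 and 1.2). Efna1 stood above Epha2 (2.35 and 2.34) and Epha3 (1.19 and 1.21), Efna5 above Epha4 (1.98 and 1.88), and Efnb1 above Ephb2 (4.04 and 3.78). Slit2 stood above Robo1 (1.23 and 1.35) and Robo2 (2.08 and 2.24), while Slit3 stood below Robo1 (-0.79 and -0.83). Ntn1 stood above Unc5b (1.07 and 1.16) and Unc5c (2.79 and 2.51), and Robo4 stood below its partner Unc5b (-1.56 and -2.03). Against neogenin, a netrin receptor outside the listed pairs, Ntn1 was lower. Neo1 was at 32.73 and 33.95 TPM and Ntn1 at 30.22 and 32.61 TPM.

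The sign turned on full-length coding transcripts for a pair of comparisons that were small to begin with. Sema6a over Plxna2 was 0.58 and 0.38 on all transcripts and -0.02 and -0.34 on full-length ones. Sema3f over Plxna3 was -0.28 and -0.19 on all transcripts and 0.32 and 0.02 on full-length ones.

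Genes that work beside these ligands and receptors were mostly present. Of 16 listed coreceptors and modulators, 11 were detected, and the 5 highest were Nrp1, Ptk7, Gpc1, Neo1 and Flrt2, between 31.26 and 107.15 TPM. The 5 under 1 TPM were Dcc, L1cam, Ntng1, Ntng2 and Dscam, all of them best known from neurons, and Dscam had no counts. Of 39 listed cytoplasmic effectors, 36 were detected. Cdc42 was highest at 413.22 and 423.38 TPM, followed by Rac1, Rhoa, Dpysl3 and Dpysl2. Rnd1, Srgap3 and Ngef were under 1 TPM. None of the 52 genes tested in these lists was called different between libraries, where 1.45% of all genes tested were called. Without the fold threshold of that test, Rhoa, Gpc1, Ptk7, Srgap3 and Crmp1 were lower in replicate 2 at an adjusted p under 0.05. Trio, Tiam1 and Neo1 were higher. Of all genes tested 9.71% passed in this way.

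The libraries were compared by an exact conditional binomial test on scaled counts, two-sided, with Benjamini-Hochberg adjustment over 17970 genes. Calls needed an adjusted p under 0.05 and a log2 ratio of at least 1 in either direction. Over all genes tested 1.45% were called, and of 60 guidance genes tested 1 was called, Unc5d. Unc5d had 14 counts in replicate 1 and 36 in replicate 2, which gives 1.44 on the log2 scale (exact 95% interval 0.55 to 2.48, adjusted p = 0.016). By edgeR's exact test with an estimated dispersion its adjusted p was 0.0789, and 0 guidance genes were called, while 18 of the 60 had an unadjusted p under 0.05 by the binomial test. The binomial test sees counting error only and says nothing of conditions. The edgeR dispersion was estimated from these same libraries taken as a single group, so it takes in differences between them. Larger p-values by edgeR's test therefore cannot show that the libraries are alike.

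Without the fold threshold 11 guidance genes passed, or 18.3% of those tested, where 9.71% of all genes tested did. The median summed count was 1412 for guidance genes tested and 1056 for all genes tested. Protein-coding genes tested had a median of 1721, and 10.7% of them passed. Of all genes that passed, 740 were higher and 1004 lower in replicate 2. The 9 guidance genes that were higher in replicate 2 were Slit2, Robo1, Unc5c, Unc5d, Plxna2, Plxna4, Plxnb1, Plxnc1 and Plxnd1. Their log2 ratios lay between 0.08 and 0.22 apart from Unc5d. Slit2, at 0.17, had the smallest adjusted p by the binomial test, 1.61e-13. By edgeR's exact test with an estimated dispersion its adjusted p was 0.697, and none of the 9 was under 0.05. Sema3e, from 152 to 84 counts (log2 ratio -0.74, adjusted p = 0.00383), and Epha5, from 71 to 34 counts (-0.94, adjusted p = 0.0229), were lower in replicate 2. Sema3e was at an adjusted p of 0.0488 and Epha5 at 0.136 by edgeR's exact test. In the same direction moved the 7 hepatocyte markers, all called, and 1 of 8 neuronal and glial markers tested, Fabp7, and their part in these values was not tested.

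**Figure D5:**
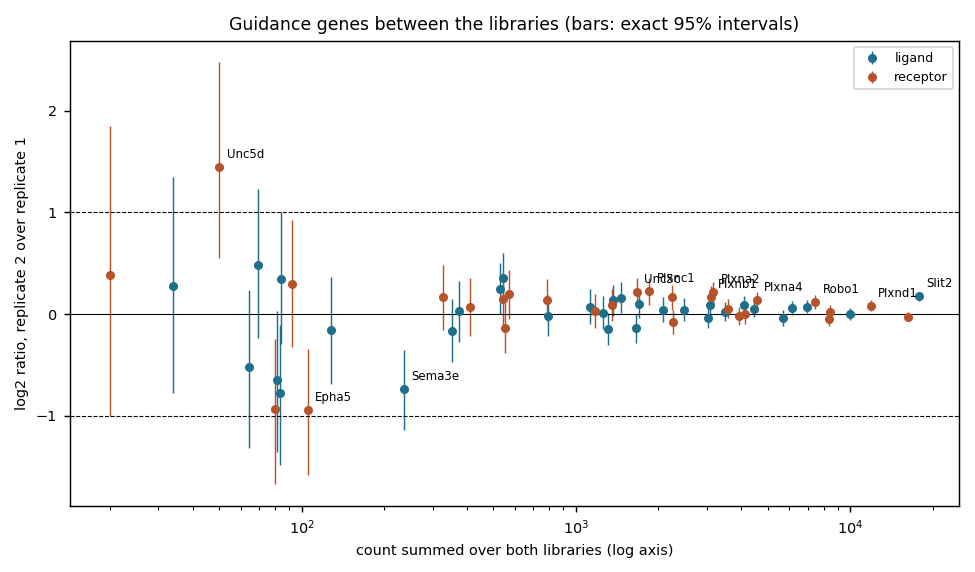
Log2 ratio of replicate 2 over replicate 1 against the summed count (log axis) for the 60 guidance genes tested, with exact 95% intervals and names for those at an adjusted p under 0.05. Dashed lines mark the fold threshold, and Unc5d at 1.44 is the sole point past it with an adjusted p under 0.05.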

How the data were processed

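Polyadenylated RNA of embryonic heart was measured in 2 libraries started from 10 ng of RNA, per the labels. Expected counts, as deposited, estimate how many reads each gene or transcript received and can be fractional. The deposited TPM and FPKM values are scaled by effective length, per the file headers. The deposited percent columns give each transcript's share of its gene. The authors' tables were made on the M21 and M4 annotations of mm10, per the text deposited beside them. The column layout is that of RSEM, but the sources used here do not name the aligner, the counter or the use of strand. Expected counts summed to 35520161 and 32577548 over all rows, of which 34248993 and 31394912 lay on annotated genes, the total used for shares.

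The M21 table was used, with symbols and coordinates matched by identifier to GENCODE M21 for all 55536 genes. Expected counts were rounded and scaled by TMM (edgeR 4.0.16), and the test took genes whose counts summed to 20 or more. On simulated counts over 55536 genes, 18 of 50 genes changed by a fold of 2 were called. A fold of 2 lies at the calling threshold itself, a log2 ratio of 1, so many such genes fall short of it by counting error. At each fold of 3, 4 and 8 the count called was 50 of 50, and 0 of 17752 unchanged genes were called. The counts were drawn with counting error only, as the test assumes, so they cannot show how it fares with other spread between libraries. The changed genes were drawn from those with a summed count of at least 100. Ratios divide replicate 2 by replicate 1 after adding 0.5 to scaled counts, with exact intervals.

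Every member is named. The rule for naming asked for both library values of the 3 highest of each family, members under 1 TPM, called members, pair members and members with under 50% on a leading transcript or on coding transcripts, and both values are given for the other members too. Transcript classes and coding segments were defined after the data were seen. Members, lists and pairs were chosen with earlier results of these data known. Exon sequences were read from GENCODE M21 transcripts (mm10). Motifs and CpG counts came from RefSeq promoter windows (GRCm38.p6). Other normalizations, detection thresholds, the posterior mean, the M4 table and single libraries were tried. No conditions exist to compare, so p-values concern these 2 libraries only.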

Additional observations from a re-analysis of the deposited data

How the results depend on the processing

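The count of detected members stayed between 45 and 59 of 66 under each of the other thresholds, tables and single libraries tried, against 48 as reported. It was 46 on the M4 annotation, 50 by the posterior mean, and 48 and 49 in single libraries. The count of members called between the libraries was 0 at a summed count of at least 100, which removes Unc5d from the genes tested, 0 by edgeR's exact test, and 11 with no fold threshold. It remained 1 with median-of-ratios, total-count and ERCC scaling and on M4. The mean log2 ratio of ligands over receptors was -0.47 for semaphorins, 0.35 for ephrins, 0.81 for Slits and 0.59 for netrins. On M4 it was -0.34 for semaphorins, 1.37 for Slits and 0.52 for netrins. By the posterior mean it was 0.31 for ephrins and 0.53 for netrins. With counts not divided by length it was -0.61, -0.1, 0.98 and 0.29 in the same order, so the ephrin sign turned and the cause was not tested further. In single libraries the ratios ranged from -0.55 to -0.39, 0.32 to 0.38, 0.73 to 0.89 and 0.56 to 0.63. Of single members, 28 of 65 moved by more than the spread between libraries on M4. Many detected members rose by a like small amount, such as Efnb3, Efna2 and Ephb4, each at a log2 ratio of 0.063. How far the 28 reflect such a shared shift was not tested. Of detected members, Plxnd1 (mean 55.2 to 38.9 TPM, and in replicate 2 alone 62.71 to 40.58 TPM) and Slit2 (mean 60.0 to 81.9 TPM) moved most, and no detected member's mean moved by over 1.5 times. Of those not detected, Sema7a went from 0.11 and 0.14 TPM to 0.12 and 0.04 TPM. Ntn3 was not matched there. FPKM gave the same order of members as TPM, but within a library they differ only by a constant factor, so this is no separate check. No paired analysis was possible because the design holds a single group. With choices added after the data were seen, a coding-length threshold of 70% moved the full-length level of 4 of 66 members, and expected counts in place of TPM moved the share of 7 of 17 coding segments. Depth limits the members with few counts, and transcript shares are given for detected members only, some of which, such as Efna3, also had few counts.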

Other observations

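Promoter windows of 300 bases, from 250 before to 50 after a gene's start, were matched for 57 of the 66 members. The median window of a member held 22 CpG pairs, against 14 over 16522 protein-coding genes with a window, 21 in those detected and 3 in those not detected. Detected members had a median of 23 (n = 41) and members not detected 16 (n = 16). Searched on both strands, GGGCGG was present in 70.2% of member windows and 47.5% of all, TATAAA in 3.51% and 12.8%, and CCAAT in 29.8% and 38.6%. The 2 member windows with TATAAA were those of Slit2 and Efnb2. Among detected members whose window lies within 100 bases of the start of the leading transcript, Robo4 had the fewest CpG pairs, at 2. Some windows lie far from the leading start, such as those of Sema6d and Sema4d. These are counts of letters and carry no test.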
